A study of Mus musculus with 12 samples.

Results

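Solute carriers were followed across IL-4-treated mouse macrophages. The members were the genes whose symbol on the array had the form of a solute carrier name (Slc, a family number, a letter and a member number), with Slc7a1, Slc7a2, Slc40a1, Slc11a1 and Slc11a2 left out by the rule. Of 308 such genes on the array, 303 remained after those 5, and 224 were measured, meaning that in at least 1 group a probe was called well above background by the scanner software on each of the 2 arrays. They stood among 18427 measured genes in all. The other 79 did not reach that level in any group and have no value here. Each gene was read by its brightest probe, and 176 of the 224 were well above background on all 12 arrays. Solute carrier genes that the array listed under older names were not members, and 4 of the members (Slc9a3r1, Slc9a3r2, Slc4a1ap and Slc7a6os) are named after a carrier without being one.

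The samples were macrophages grown from bone marrow of mice of the strains C57BL6/J (written C57BL6 here) and Balb/cAnNCrl (Balb/c), cultured with recombinant human CSF1 at 200 ng/ml and given mouse recombinant IL-4 (interleukin-4, the cytokine of alternative macrophage activation) at 10 ng/ml for 4 h or 18 h, or left without it for 18 h (mock). The 4 h cells were therefore compared with mock cells held for a longer time. Mice were 8 to 12 weeks old, and marrow of 2 males and 1 female was combined for every sample. Each of the 6 groups held 2 arrays, from 2 independent experiments on different littermates. The labels name no transgene or deletion in any group.

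Solute carriers are membrane proteins that move sugars, amino acids, lipids, metals, nucleosides, vitamins and inorganic ions across the cell surface and the membranes of mitochondria, lysosomes and the Golgi. Transport is driven by the gradient of the substrate or by coupling to sodium, protons or an exchanged solute rather than by direct use of ATP, which sets them apart from ABC transporters and ion pumps. In macrophages they supply nutrients to the activated cell, handle the metals and nucleosides released by digested cells, and contribute to the pH of endosomes.

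Values are log2 levels of the processed signal minus the 75th percentile of the same array, so a level of 0 equals that percentile, and levels of different genes are not compared. A gene was called when its Benjamini-Hochberg adjusted p over all 18427 genes was below 0.05 in limma, and a change is given on the log2 scale with its standard error (SE). The replicate numbers were taken to pair the samples within a strain. The adjusted p with the replicate number as a block is given beside a value described here where it changed that value's call. Each array held 43379 spots, 54.9% to 69.7% of them well above background, and over the 224 genes the replicates correlated at r = 0.974 to 0.990. Macrophage markers (7 of 8 listed were measured) were well above background on all 12 arrays, with a summed level of 9.06 to 9.51. The sum does not show single markers, of which 1 was called lower and none higher at 18 h in each strain. Fcgr1 had 7.12 and 6.90 in C57BL6 mock and 4.98 and 5.11 at 18 h. In Balb/c it had 6.67 and 6.95 in mock and 4.61 and 5.21 at 18 h. Slides overlapped with the groups: slide 1 held only Balb/c, slide 3 only C57BL6 and slide 2 both, and both Balb/c mock arrays were on slide 1. Within the slides that held both groups, the called members had the sign of the whole fit in 11 of 11 genes on slide 2 and on slide 3 for C57BL6 at 4 h, 17 of 17 on slide 3 for C57BL6 at 18 h, and 4 of 4 and 12 of 12 on slide 1 for Balb/c at 4 h and 18 h. These genes were called on the same arrays, so the counts are a description and no test of the slide. The samples are pools of whole cultures, so fewer cells of a type and less RNA per cell cannot be told apart.

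In C57BL6 cells, 11 of 224 solute carriers were called after 4 h of IL-4, 5 higher and 6 lower. The 11 are 4.91% of the members beside 3.22% of all genes in either direction, with 1.57% of all genes called higher and 1.66% called lower. At 18 h 17 were called, 6 higher and 11 lower, which is 7.59% beside 4.28% of all genes (1.69% higher and 2.59% lower). In Balb/c cells 4 were called at 4 h, 3 higher and 1 lower, which is 1.79% beside 1.43% (0.944% higher and 0.488% lower). At 18 h 12 were called, 6 in each direction, which is 5.36% beside 3.73% (1.37% higher and 2.36% lower). The median change of the 224 was -0.02, -0.06, 0.11 and 0.03 in these 4 comparisons, in the same order, beside -0.03, -0.04, 0.02 and 0.02 over all genes. In all, 23 members were called in at least 1 of the 4 comparisons.

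With the replicate block the counts were 54, 56, 30 and 47, in the same order, and 90 members in any of them. Beside these stand 16.6%, 17.4%, 7.29% and 15.1% of all genes with the block, and 24.1%, 25%, 13.4% and 21% of the members. Leaving out any 1 of the 4 arrays compared left 1 to 3 calls in C57BL6 at 4 h, 3 to 5 at 18 h, 0 to 4 in Balb/c at 4 h and 1 to 6 at 18 h. The calls that stood in every such fit were Slc30a4 at 4 h and Slc7a11 and Slc39a8 at 18 h in C57BL6, and Slc39a12 at 18 h in Balb/c.

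**Figure D1:**
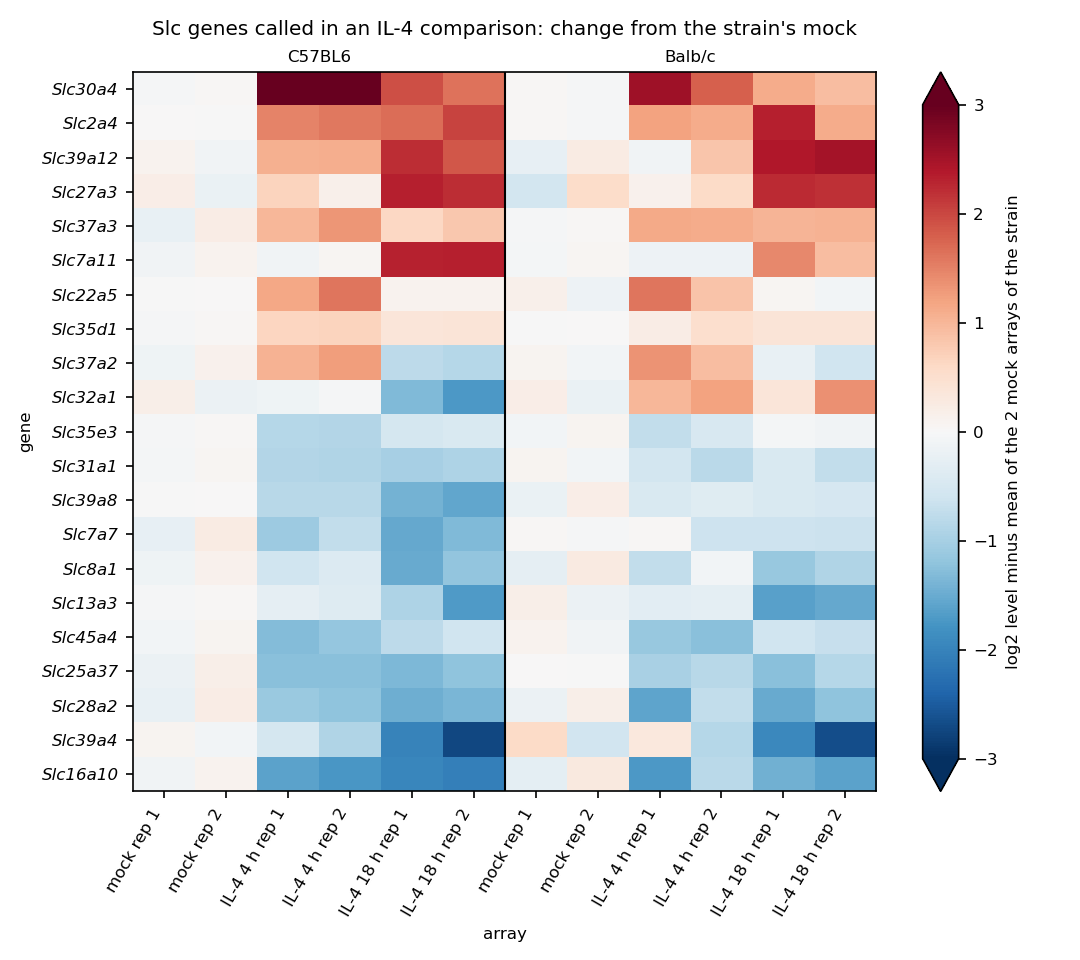
Change of 21 of the 23 solute carriers called in any of the 4 IL-4 comparisons (rows) on each of the 12 arrays (columns), as log2 level minus the mean of the strain's 2 mock arrays (colour, from -3 to 3, with values beyond at the end colour). Slc30a4 stands out at 4 h, Slc7a11, Slc27a3 and Slc39a12 at 18 h, and Slc32a1 has opposite signs in the strains at 18 h.

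Metal carriers held Slc30a4, the gene with the highest called log2 rise of the 4 comparisons. Of 24 measured genes for zinc, copper, magnesium and haem, 1 was called higher and 2 lower in C57BL6 at 4 h, 2 higher and 3 lower at 18 h, 1 higher in Balb/c at 4 h, and 1 higher and 1 lower at 18 h. Slc30a4 encodes a zinc transporter that moves zinc from the cytosol into vesicles. In C57BL6 cells its level was -0.29 and -0.20 in mock, 2.82 and 2.75 at 4 h, and 1.68 and 1.38 at 18 h of IL-4. In Balb/c cells it was -0.76 and -0.81 in mock, 1.76 and 1.02 at 4 h, and 0.34 and 0.15 at 18 h. All 8 treated arrays lay above all 4 mock arrays, with the 4 h arrays highest in each strain. The rise at 4 h was 3.03 ± 0.24 (SE, n = 2 against 2; adjusted p = 0.0013) in C57BL6 and 2.17 ± 0.24 (adjusted p = 0.0081) in Balb/c. At 18 h it was 1.78 ± 0.24 (adjusted p = 0.0066) in C57BL6, while the Balb/c change of 1.02 ± 0.24 missed the threshold (adjusted p = 0.063; 0.024 with the replicate block). The Balb/c call at 4 h reached an adjusted p of 0.054 when either mock array was left out, and the C57BL6 call at 18 h 0.067 without 18 h replicate 1.

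Slc39a12, a zinc importer best known from brain, followed a later course. Its level in C57BL6 was -3.46 and -3.67 in mock, -2.50 and -2.47 at 4 h, and -1.36 and -1.71 at 18 h. In Balb/c the level was -3.62 and -3.15 in mock, -3.49 and -2.54 at 4 h, and -0.98 and -0.89 at 18 h. The 18 h arrays were the highest in both strains, and in Balb/c the 4 h arrays overlapped the mock arrays. The C57BL6 change at 4 h was 1.08 (adjusted p = 0.12; 0.027 with the block). Slc39a12 rose by 2.03 ± 0.31 (adjusted p = 0.011) in C57BL6 and by 2.45 ± 0.31 (adjusted p = 0.0048) in Balb/c at 18 h. Its C57BL6 call ended without any 1 of the 4 arrays, at adjusted p from 0.053 to 0.095. Slc39a6, another zinc importer, was among the brightest of these genes and was not called: it changed by 1.17 and 1.42 at 4 h in C57BL6 and Balb/c (adjusted p = 0.097 and 0.085), with adjusted p of 0.016 and 0.018 under the replicate block.

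The metal carriers called lower, Slc39a4, Slc39a8 and Slc31a1, are all importers. Slc39a4, the intestinal zinc importer, had levels of 2.68 and 2.53 in C57BL6 mock, 2.07 and 1.71 at 4 h, and 0.60 and -0.13 at 18 h. In Balb/c its levels were 1.33 and 0.20 in mock, 1.07 and -0.08 at 4 h, and -1.18 and -1.89 at 18 h. Both 18 h arrays of each strain lay below every other array of that strain. The fall at 18 h was -2.37 ± 0.50 (adjusted p = 0.040) in C57BL6 and -2.30 ± 0.50 (adjusted p = 0.048) in Balb/c. At 4 h C57BL6 had -0.71 (adjusted p = 0.58; 0.049 with the block). Slc39a8, which carries zinc and manganese into cells, had levels of -0.25 and -0.23 in C57BL6 mock, -1.08 and -1.06 at 4 h, and -1.65 and -1.79 at 18 h, 3 groups that did not overlap. It fell by 0.83 (SE 0.16, adjusted p = 0.036) at 4 h and by 1.49 (SE 0.16, adjusted p = 0.0029) at 18 h. In Balb/c its changes were -0.40 and -0.47 (adjusted p = 0.44 and 0.21), and the second probe of the gene gave -0.47 and -1.0 in C57BL6 and -0.42 and -0.48 in Balb/c. Slc31a1, the main cellular copper importer, fell in C57BL6 by 0.89 (SE 0.16, adjusted p = 0.028) at 4 h and by 0.96 (SE 0.16, adjusted p = 0.017) at 18 h, but its second probe gave -0.41 and -0.27. In Balb/c its values were -0.68 and -0.59 (adjusted p = 0.11 at both times; 0.017 and 0.012 with the block), and the second probe gave -0.64 and -0.77. Of these calls, that of Slc39a8 at 18 h alone stood without each array, and the highest adjusted p without 1 array was 0.22 for Slc39a8 at 4 h, 0.19 and 0.13 for Slc31a1, and 0.25 and 0.28 for Slc39a4 in C57BL6 and Balb/c. The 4 zinc response genes tested, metallothioneins and their regulator, held 0 calls by limma in the 4 IL-4 comparisons and 1 higher with the replicate block, in C57BL6 at 18 h.

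**Figure D2:**
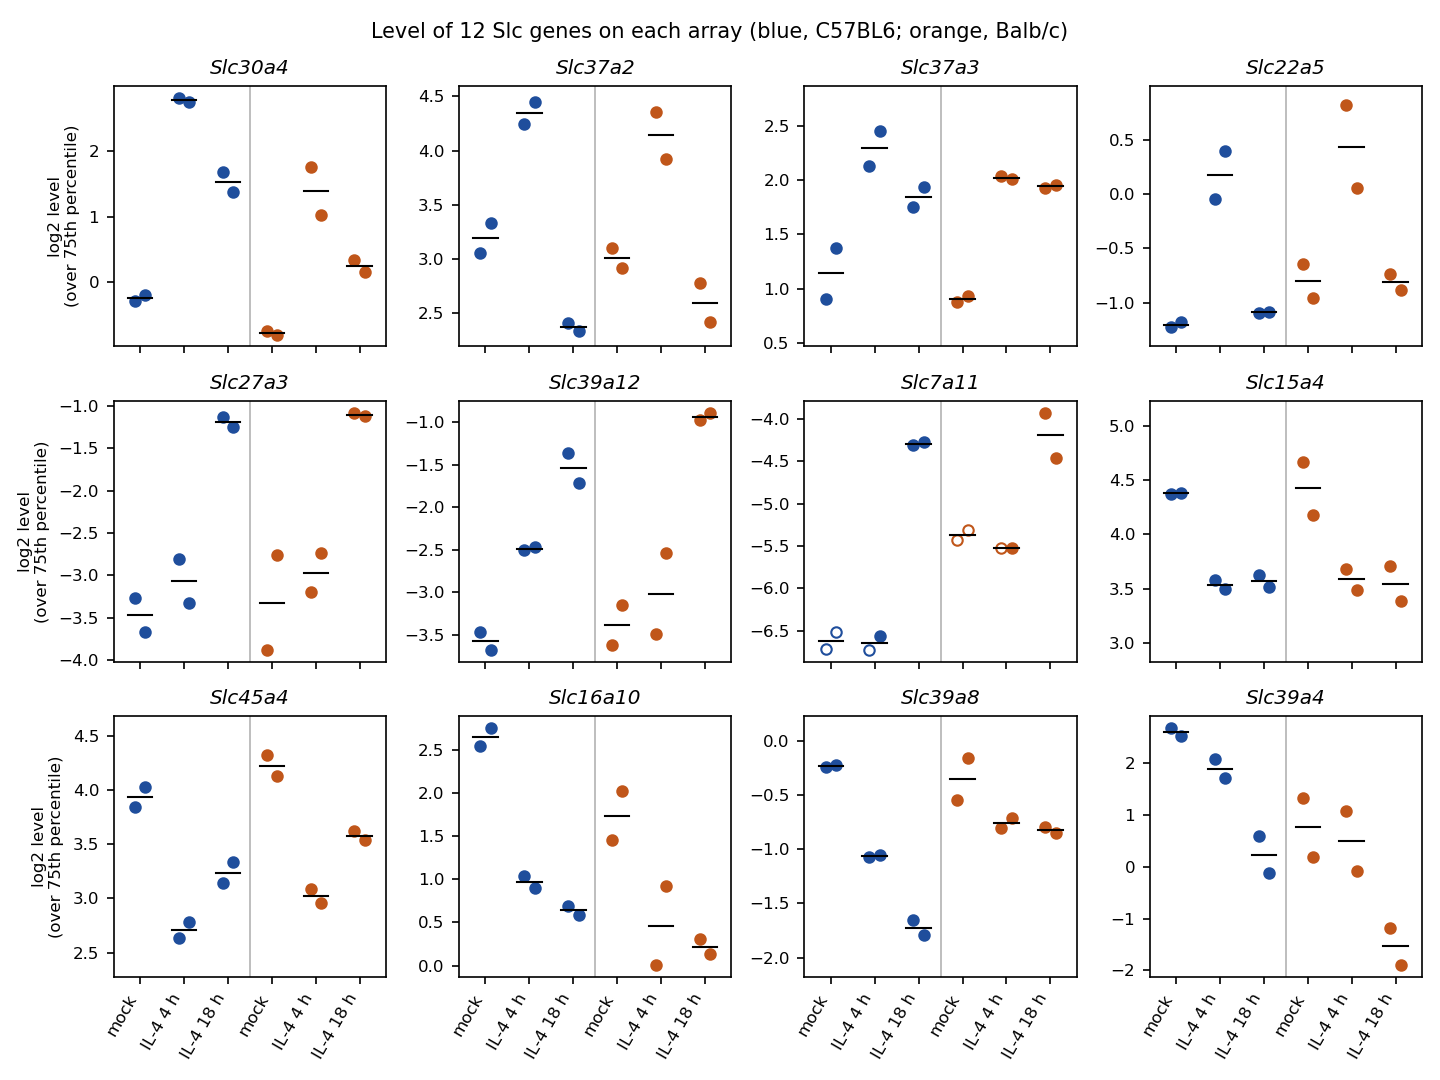
Level of 12 solute carriers (y axis, log2 over the 75th percentile of the array) in the 6 groups (x axis), a point per array and a line at the group mean, with C57BL6 in blue and Balb/c in orange. Open points were not well above background. Slc37a2 and Slc22a5 are high at 4 h, with Slc37a2 below mock and Slc22a5 back close to it at 18 h. Slc27a3 and Slc7a11 are high at 18 h.

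Among 19 carriers of sugars and sugar phosphates, the Slc37 family had 2 genes called higher at 4 h in both strains, with different courses afterwards. Slc37a2, a sugar-phosphate exchanger of the endoplasmic reticulum that is abundant in macrophages, had levels of 3.06 and 3.33 in C57BL6 mock, 4.25 and 4.45 at 4 h, and 2.41 and 2.34 at 18 h. In Balb/c the levels were 3.10 and 2.92 in mock, 4.36 and 3.93 at 4 h, and 2.78 and 2.42 at 18 h. The 4 h arrays were highest and the 18 h arrays lowest in each strain, with no overlap between the groups. Slc37a2 rose by 1.16 ± 0.21 (adjusted p = 0.027) and 1.13 ± 0.21 (adjusted p = 0.047) at 4 h in C57BL6 and Balb/c. At 18 h the values were -0.82 ± 0.21 (adjusted p = 0.078; 0.012 with the block) and -0.41 ± 0.21 (adjusted p = 0.43; 0.080 with the block). The second probe of the gene gave 1.18 and 1.24 at 4 h and -0.87 and -0.37 at 18 h.

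Slc37a3, needed in human cells to release bisphosphonates from lysosomes, stayed high. Its levels were 0.91 and 1.37 in C57BL6 mock, 2.13 and 2.46 at 4 h, and 1.76 and 1.94 at 18 h. In Balb/c they were 0.88 and 0.93 in mock, 2.04 and 2.01 at 4 h, and 1.93 and 1.96 at 18 h. Every treated array lay above every mock array. The rise was 1.16 ± 0.19 (adjusted p = 0.019) and 1.12 ± 0.19 (adjusted p = 0.037) at 4 h in C57BL6 and Balb/c, and 1.04 ± 0.19 (adjusted p = 0.025) at 18 h in Balb/c. The C57BL6 value at 18 h was 0.71 ± 0.19 (adjusted p = 0.094; 0.0098 with the block). Slc37a4, the glucose 6-phosphate translocase of the endoplasmic reticulum, changed by 0.67 and 0.83 at 4 h, called only with the block (adjusted p = 0.040 and 0.038). These calls of Slc37a2 and Slc37a3 were lost without 1 array, at adjusted p up to 0.21 for Slc37a2 and 0.18 for Slc37a3.

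Glucose transporters gave a mixed picture. Slc2a4, the insulin-responsive glucose transporter of muscle and fat, was near background: its levels were -6.06 and -6.09 in C57BL6 mock (1 of 2 arrays above background), -4.58 and -4.49 at 4 h, and -4.41 and -4.04 at 18 h. The 18 h rise was 1.85 ± 0.35 in C57BL6 (adjusted p = 0.025), and the 4 h value was 1.54 (adjusted p = 0.059; 0.027 with the block). In Balb/c, where neither mock array was above background, it was at least 2.64-fold higher at 18 h (adjusted p = 0.035). Slc2a1, the widespread glucose transporter, changed by -0.06, -0.23, 0.22 and 0.44 in C57BL6 at 4 h and 18 h and in Balb/c at 4 h and 18 h, and was not called (adjusted p = 0.72 to 0.98). Its Balb/c mock levels of 2.42 and 3.66 lay further apart than any of these changes. Slc2a6, a lysosomal hexose transporter, was not called against mock by limma (-0.78 in Balb/c at 18 h, adjusted p = 0.086; 0.014 with the block) but was lower at 18 h than at 4 h of IL-4. Slc45a4, of a family of proton-linked sugar carriers, had levels of 3.85 and 4.03 in C57BL6 mock, 2.64 and 2.78 at 4 h, and 3.14 and 3.33 at 18 h. In Balb/c the levels were 4.32 and 4.13, 3.09 and 2.96, and 3.62 and 3.54. The 4 h arrays were lowest and the 18 h arrays in between in both strains. Slc45a4 fell by 1.23 (SE 0.16, adjusted p = 0.0067) and 1.20 (SE 0.16, adjusted p = 0.015) at 4 h and, in C57BL6, by 0.70 (SE 0.16, adjusted p = 0.049) at 18 h. The Balb/c value at 18 h was -0.64 (adjusted p = 0.072; 0.0081 with the block), where a second probe, above background on 10 of 12 arrays, gave -1.36. Without 1 array the adjusted p of the Slc45a4 calls went up to 0.070, 0.095 and 0.29, and that of the Slc2a4 calls up to 0.17 and 0.14.

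Of 26 amino acid carriers, none was called at 4 h in either strain (limma, with 4 called in C57BL6 and 2 in Balb/c under the replicate block), and at 18 h 1 was called higher in each strain and 2 lower in C57BL6. Slc7a11, the cystine and glutamate exchanger that supplies cysteine for glutathione, had levels of -6.72 and -6.52 in C57BL6 mock, both below background, -6.72 and -6.56 at 4 h, and -4.31 and -4.28 at 18 h. In Balb/c its levels were -5.43 and -5.31 in mock, again below background, -5.53 and -5.52 at 4 h, and -3.93 and -4.46 at 18 h. All 4 arrays at 18 h were above background and the highest of their strain, while the 4 h arrays lay at or close to mock. Slc7a11 was at least 3.56-fold higher at 18 h in C57BL6 (adjusted p = 0.0011) and at least 2.26-fold higher in Balb/c (adjusted p = 0.015). Its second probe gave 1.70 and 1.71 at 18 h, and 0.60 and 1.21 at 4 h, where the brighter probe had -0.02 and -0.15 in C57BL6 and Balb/c. The Balb/c call ended in 3 of 4 fits without 1 array, at adjusted p up to 0.091, and also with median or quantile scaling, normexp background correction, only the compared arrays in the fit, or the mean of both probes.

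The 250 bases before the start of Slc7a11 are shown because the gene is a known target of the amino acid response, in which ATF4 binds a composite of C/EBP and ATF letters. The sequence is that of RefSeq on GRCm38.p6 (chr3:50443614-50443863, minus strand), read 5′ to 3′, and the capitals mark the letters TGATGNAA on either strand.
Slc7a11: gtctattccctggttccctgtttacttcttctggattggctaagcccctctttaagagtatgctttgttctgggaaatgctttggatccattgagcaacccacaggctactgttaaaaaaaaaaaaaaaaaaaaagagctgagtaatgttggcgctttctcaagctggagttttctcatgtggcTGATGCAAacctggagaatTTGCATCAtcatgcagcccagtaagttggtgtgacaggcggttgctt
Both matches lie close to the start, beginning at -66 and -47. The motif occurs in 3.91% of 27025 genes with a promoter in the table and in 4 of 172 measured solute carriers that had one. Among the called carriers it was found in 1 of 8 higher and 1 of 9 lower genes, the latter being Slc7a7, with a match at -141 from 1 listed start and at -243 from another. A match describes the letters and not binding. The amino acid starvation genes, 12 tested, held 1 gene called lower in C57BL6 at 4 h, the regulator Cebpb (-1.13 ± 0.19, adjusted p = 0.020), and no call by limma in the other 3 IL-4 comparisons. With the replicate block, 1 was called lower at 4 h in each strain, 1 lower in C57BL6 at 18 h and 2 higher in Balb/c at 18 h. The median change of the 12 was 0.35 and 0.19 at 4 h and 0.19 and 0.88 at 18 h in C57BL6 and Balb/c. Balb/c mock replicates lay far apart for Asns (1.35 and 4.21) and Phgdh (-0.24 and 2.51), among others. They lay close for Sesn2 (3.24 and 3.32). The lack of calls in Balb/c is therefore not shown to be a lack of change. Slc7a11 is also a target of Nrf2. The antioxidant response letters TGACNNNGC, searched in the same 250 bases, had no match there. They were found in 1 of 8 higher and 2 of 9 lower carriers, beside 11.5% of all genes. A list of 10 Nrf2 target genes, with Nfe2l2, the gene of Nrf2 itself, among them, was read beside Slc7a11. Of these, Hmox1 was lower at 4 h in C57BL6 (-1.02 ± 0.14, adjusted p = 0.0094) and in Balb/c (-0.91 ± 0.14, adjusted p = 0.026), and no other was called against mock by limma. With the block 6 were lower in C57BL6 and 1 in Balb/c at 4 h, and 3 were lower in C57BL6 and 2 higher in Balb/c at 18 h. The median change of the 10 was -0.74 and -0.43 at 4 h and -0.19 and 0.28 at 18 h in C57BL6 and Balb/c.

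Slc7a7, which with Slc3a2 exports cationic amino acids such as arginine, had levels of 2.67 and 3.15 in C57BL6 mock, 1.81 and 2.17 at 4 h, and 1.37 and 1.59 at 18 h. In Balb/c they were 4.70 and 4.63, 4.70 and 4.04, and 4.03 and 4.03. The 18 h arrays lay below mock in both strains, and every Balb/c array lay above every C57BL6 array. Slc7a7 fell by 1.43 (SE 0.26, adjusted p = 0.022) at 18 h in C57BL6, and the Balb/c value was -0.63 (adjusted p = 0.30). At 4 h C57BL6 had -0.91 (adjusted p = 0.12; 0.026 with the block). Slc32a1, the vesicular carrier of GABA and glycine in neurons, fell by 1.51 (SE 0.33, adjusted p = 0.044) in C57BL6 at 18 h and had 0.87 (adjusted p = 0.26) in Balb/c. Without 1 array these 2 calls reached an adjusted p of up to 0.15 and 0.26. The widely used carriers were not called against mock by limma. Slc3a2, the shared heavy chain, had changes of 0.07 to 0.25, but its second probe gave 0.98 and 0.76 in C57BL6 at 4 h and 18 h, and 0.16 and 0.07 in Balb/c. Slc1a5, a neutral amino acid exchanger, had changes of 0.25 to 0.95. Slc38a2, a sodium-coupled neutral amino acid importer, had -0.63 to -0.03, and its 3 further probes ran from -0.89 to 0.24. With the block Slc1a5 was called in Balb/c at 18 h (adjusted p = 0.038) and Slc38a2 in C57BL6 at 4 h (adjusted p = 0.045). Slc7a4 was called with the block alone in all 4 comparisons, at 1.38 and 0.67 in C57BL6 and 0.76 and 0.69 in Balb/c at 4 h and 18 h (adjusted p = 0.0054, 0.031, 0.039 and 0.031). Slc7a5, the light chain for large neutral amino acids, had Balb/c mock levels of -0.58 and 2.47, so that the replicates lay further apart than any change (-0.42 to 1.43).

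Of 4 fatty acid carriers, Slc27a3 was called in both strains at 18 h and no other by limma. With the block Slc27a6 was called there too, at 1.78 in Balb/c and at least 1.62-fold higher in C57BL6, where mock was below background (adjusted p = 0.12 and 0.24; 0.0026 and 0.0065 with the block). Slc27a3, a fatty acid transport protein with acyl-CoA synthetase activity, had levels of -3.27 and -3.66 in C57BL6 mock, -2.80 and -3.33 at 4 h, and -1.14 and -1.26 at 18 h. In Balb/c the levels were -3.88 and -2.76 in mock, -3.19 and -2.74 at 4 h, and -1.08 and -1.12 at 18 h. The 4 arrays at 18 h stood apart from the 8 others. Slc27a3 rose by 2.27 ± 0.36 (adjusted p = 0.013) in C57BL6 and by 2.22 ± 0.36 (adjusted p = 0.015) in Balb/c. The adjusted p went up to 0.10 and 0.089 when 1 array was left out. The brightest of the family, Slc27a1, changed by -0.52 to -0.23 and was not called.

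Of 32 mitochondrial carriers on the array 30 were measured, and 1 gene of them was called by limma, lower, in 3 of the 4 comparisons. Slc25a37 (mitoferrin 1), which brings iron into mitochondria for haem and iron-sulfur clusters, had levels of 2.22 and 2.56 in C57BL6 mock, 1.13 and 1.14 at 4 h, and 1.05 and 1.17 at 18 h. In Balb/c its levels were 2.57 and 2.53, 1.58 and 1.73, and 1.30 and 1.70. All treated arrays lay below all mock arrays. Slc25a37 fell by 1.26 (SE 0.19, adjusted p = 0.012) and 1.28 (SE 0.19, adjusted p = 0.0089) at 4 h and 18 h in C57BL6 and by 1.05 (SE 0.19, adjusted p = 0.020) at 18 h in Balb/c, where the 4 h value was -0.90 (adjusted p = 0.075; 0.026 with the block). Its second probe gave -0.68, -0.94, -0.57 and -0.65, in the order C57BL6 4 h and 18 h, Balb/c 4 h and 18 h, and a further probe, above background on 6 of 12 arrays, gave -0.91, -1.0, -0.10 and 0.54. Leaving out 1 array took the adjusted p up to 0.11, 0.087 and 0.13. Of 5 erythroid markers listed, where this gene is most used, 2 were measured (Hba-a1 and Epor), with summed levels of -1.86 to -1.77 in C57BL6 mock, -2.17 to -1.69 in the treated C57BL6 groups, -1.56 in the 1 Balb/c mock array that measured both and -1.69 to -0.59 in the treated Balb/c groups, and their part in the result was not tested. The related Slc25a28 (mitoferrin 2) was called only with the block, at -0.48, -0.56 and -0.42 in C57BL6 at 4 h and 18 h and in Balb/c at 18 h (adjusted p = 0.028, 0.018 and 0.044). The ADP and ATP exchangers Slc25a5 and Slc25a4 had the highest levels in this group, and Slc25a5 changed by 0.57 and 0.52 at 18 h in C57BL6 and Balb/c (adjusted p = 0.074 and 0.11; 0.017 and 0.025 with the block). The citrate carrier Slc25a1 changed by 0.15 to 0.38 and was not called.

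Of 12 carriers of mono- and dicarboxylates, 1 was called lower in C57BL6 at 4 h and 2 at 18 h in each strain, and none higher by limma. With the block Slc16a13 was called higher in C57BL6 at 4 h (0.76, adjusted p = 0.045), and Slc16a1 and Slc16a8 in Balb/c at 18 h (1.25 and 0.99, adjusted p = 0.042 and 0.044). Slc16a10, a carrier of aromatic amino acids in a family of lactate carriers, had levels of 2.54 and 2.76 in C57BL6 mock, 1.04 and 0.90 at 4 h, and 0.69 and 0.59 at 18 h. In Balb/c they were 1.45 and 2.03, 0.01 and 0.92, and 0.30 and 0.14. No treated array reached a mock array of its strain. Slc16a10 fell by 1.68 (SE 0.31, adjusted p = 0.027) and 2.01 (SE 0.31, adjusted p = 0.011) at 4 h and 18 h in C57BL6 and by 1.52 (SE 0.31, adjusted p = 0.035) at 18 h in Balb/c. The Balb/c value at 4 h was -1.28 (adjusted p = 0.11; 0.046 with the block), and 2 further probes of the gene lay between -1.42 and -0.70 in the 4 comparisons. With 1 array left out the adjusted p went up to 0.19, 0.087 and 0.20. Slc13a3, the sodium-coupled carrier of succinate and other dicarboxylates, fell by 1.31 (SE 0.25, adjusted p = 0.025) in C57BL6 at 18 h, from -0.69 and -0.60 in mock to -1.57 and -2.34; without 1 array its adjusted p went up to 0.13. In Balb/c it was near background in mock (-5.10 and -5.45, 1 array of 2 above it) and below it on both 18 h arrays, so no fold is given there (adjusted p = 0.012, up to 0.081 without 1 array). Slc16a3, the lactate exporter of glycolytic cells, had -1.09 (adjusted p = 0.13; 0.025 with the block) in C57BL6 and 0.26 (adjusted p = 0.79) in Balb/c at 18 h.

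Nucleoside carriers gave 1 call by limma among 6, lower at 18 h in both strains. Slc28a2, the sodium-coupled importer of purine nucleosides, had levels of 2.40 and 2.83 in C57BL6 mock, 1.50 and 1.41 at 4 h, and 1.15 and 1.23 at 18 h. In Balb/c the levels were 1.85 and 2.20, 0.45 and 1.28, and 0.52 and 0.81. The mock arrays of each strain were its highest. The change at 18 h was -1.42 ± 0.29 (adjusted p = 0.032) in C57BL6 and -1.36 ± 0.29 (adjusted p = 0.042) in Balb/c, and at 4 h -1.16 in each strain (adjusted p = 0.079 and 0.12; 0.015 and 0.026 with the block). In fits that left out 1 array, the adjusted p at 18 h went up to 0.18 and 0.22. The equilibrative carrier Slc29a2, named after its values were seen, had levels of -2.44 and -2.42 in C57BL6 mock and -0.84 and -0.72 at 4 h, and of -2.91 and -2.08 in Balb/c mock and -1.30 and -0.47 at 4 h. Its changes were 1.65 and 1.61 at 4 h and 0.70 and 0.66 at 18 h, not called (adjusted p = 0.057, 0.10, 0.39 and 0.48) but each called with the block (adjusted p = 0.0020, 0.0030, 0.0087 and 0.011). The lysosomal carrier Slc29a3 had 1.06 in C57BL6 at 18 h (adjusted p = 0.16; 0.0040 with the block) and 0.03 in Balb/c.

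The promoter of Slc28a2 is shown because it was the only one, among the 17 called solute carriers with a promoter in the table (8 higher and 9 lower), to hold TTCNNNNGAA, the spacing preferred by STAT6, the factor that IL-4 activates. The sequence is from RefSeq on GRCm38.p6 (chr2:122426185-122426434, plus strand), the 250 bases before the start, 5′ to 3′, with the match in capitals.
Slc28a2: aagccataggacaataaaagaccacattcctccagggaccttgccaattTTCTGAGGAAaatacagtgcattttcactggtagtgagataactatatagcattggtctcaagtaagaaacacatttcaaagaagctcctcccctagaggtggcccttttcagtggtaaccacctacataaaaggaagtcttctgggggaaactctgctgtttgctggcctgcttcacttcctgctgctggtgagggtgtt
The match begins at -201. These letters, which read the same on both strands apart from the 4 free bases, occur in 6.76% of 27025 genes with a promoter and in 10 of 172 measured solute carriers. None of the 8 promoters of genes called higher held them in this window, which says only that the letters are not in these 250 bases.

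Carriers of organic ions and vitamins held a gene high at 4 h alone. Slc22a5, the carnitine importer that serves fatty acid oxidation, had levels of -1.23 and -1.18 in C57BL6 mock, -0.05 and 0.39 at 4 h, and -1.09 and -1.09 at 18 h. In Balb/c it had -0.65 and -0.96, 0.82 and 0.06, and -0.74 and -0.88. The 4 h arrays were the highest in both strains, and the 18 h arrays lay just above mock in C57BL6 and overlapped it in Balb/c. Slc22a5 rose by 1.38 ± 0.27 (adjusted p = 0.033) in C57BL6 at 4 h, with 1.24 ± 0.27 in Balb/c (adjusted p = 0.084; 0.023 with the block), and its second probe gave 1.15 and 0.97. Without 1 array the C57BL6 call reached adjusted p of 0.098 to 0.25. It was the only call among 25 genes of this group in the 4 comparisons, beside 7 with the block in C57BL6 at 4 h. Slc14a1, the urea transporter of red cells and kidney, was not called. Its levels were -2.76 and -3.56 in C57BL6 mock and -0.32 and -0.63 at 4 h, and -1.45 and -2.49 in Balb/c mock and 1.20 and -0.32 at 4 h. The changes of 2.68 ± 0.58 and 2.41 ± 0.58 had adjusted p of 0.051 and 0.12 (0.010 and 0.023 with the block), and a second probe gave 2.25 and 2.22.

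Ion exchangers were the largest group, with 32 genes, and held no call at 4 h by limma (6 in each strain with the block). At 18 h 1 was called higher and 1 lower in each strain by limma. With the block 3 were higher and 4 lower in C57BL6 at 18 h, and 2 higher and 7 lower in Balb/c. Slc8a1, the sodium and calcium exchanger, fell by 1.35 (SE 0.27, adjusted p = 0.032) in C57BL6 at 18 h, with -1.02 in Balb/c (adjusted p = 0.096; 0.0064 with the block), and its further probes disagreed in size, with -1.52 and -0.66 in C57BL6 and -0.03 and -0.41 in Balb/c at 18 h on the 2 above background on all arrays, and -1.83 and -1.32 on 1 above it on 3 of 12. Without 1 array the adjusted p of Slc8a1 went up to 0.20.

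Of 18 carriers of nucleotide sugars and acetyl-CoA, 2 were called by limma, in C57BL6 at 4 h. Slc35d1, which takes UDP-glucuronic acid into the endoplasmic reticulum, rose by 0.67 ± 0.14 (adjusted p = 0.050 when rounded), and Slc35e3, of unknown substrate, fell by 0.87 (SE 0.15, adjusted p = 0.022). In Balb/c at 4 h they had 0.36 and -0.61 (adjusted p = 0.42 and 0.12; 0.034 for Slc35e3 with the block). Without 1 array the adjusted p went up to 0.28 for Slc35d1 and 0.17 for Slc35e3. Slc35f5 was the gene of this group with the largest average change, -1.23 and -0.93 at 4 h (adjusted p = 0.061 and 0.22; 0.0040 and 0.013 with the block).

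The remaining groups held no call against mock by limma. Among 7 peptide and lysosomal anion carriers, Slc15a4, the lysosomal histidine and peptide carrier required for endosomal Toll-like receptor responses, had changes of -0.84, -0.80, -0.84 and -0.88 in C57BL6 at 4 h and 18 h and in Balb/c at 4 h and 18 h (adjusted p = 0.071, 0.071, 0.11 and 0.057). All of them were called with the block (adjusted p = 0.0084, 0.0074, 0.015 and 0.0063). Its levels were 4.37 and 4.38 in C57BL6 mock and 3.49 to 3.63 on the treated arrays, and 4.67 and 4.18 in Balb/c mock and 3.38 to 3.70 on the treated arrays, so no treated array reached mock. Slc15a3, its paralog, changed by 0.12 to 0.67. Among 14 carriers of neurotransmitters, taurine and creatine, the taurine carrier Slc6a6 and the creatine carrier Slc6a8 had -0.64 and -0.67 in C57BL6 at 4 h (adjusted p = 0.13 and 0.24; 0.018 and 0.047 with the block), but the second Slc6a6 probe gave 0.02. The phosphate importer Slc20a1, which also serves as a retrovirus receptor, had -1.43 in C57BL6 and -0.92 in Balb/c at 4 h (adjusted p = 0.30 and 0.76; 0.0086 and 0.043 with the block). Its second probe gave -1.05 in C57BL6 and 0.47, of the opposite sign, in Balb/c, and its Balb/c mock levels of 2.15 and 3.54 lay far apart.

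**Figure D3:**
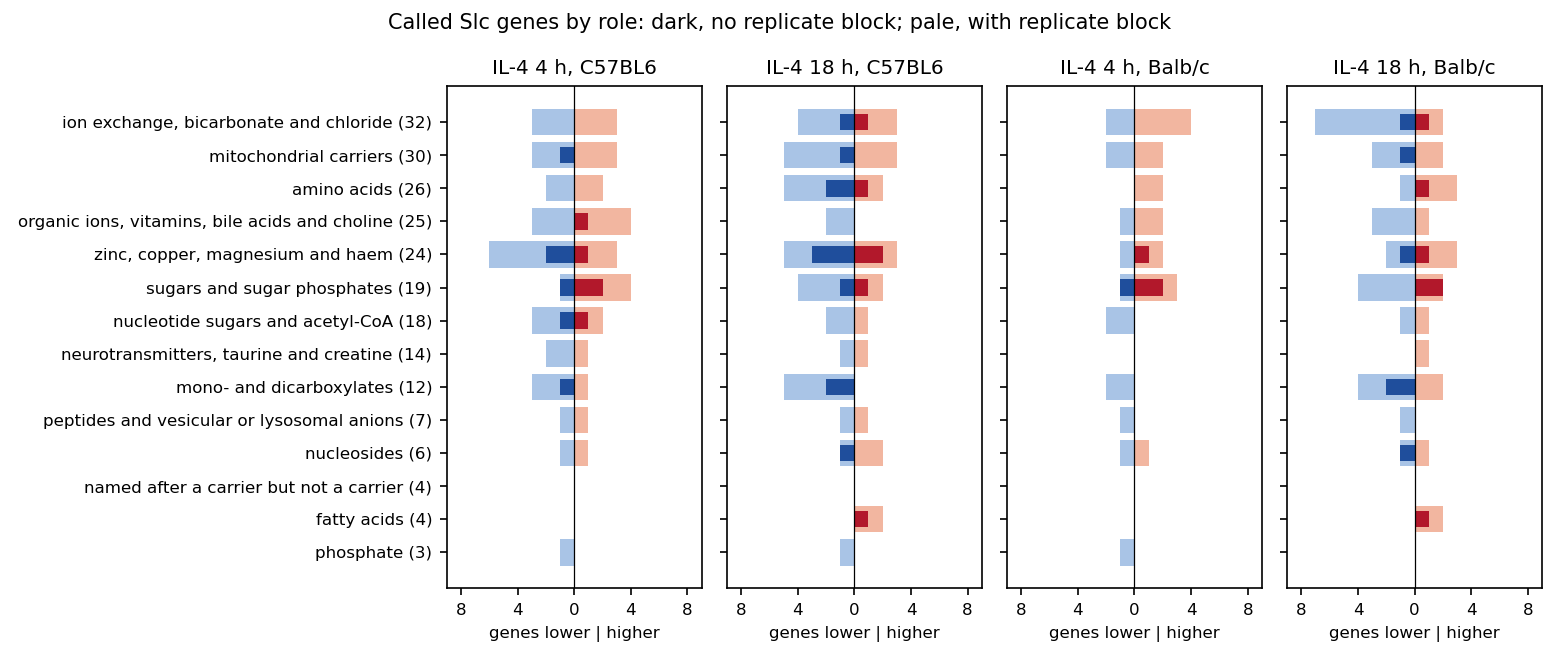
Number of solute carriers called lower (left, blue) and higher (right, red) in the 4 IL-4 comparisons, by role, with the number measured in brackets. Dark bars show limma without and pale bars with the replicate block. Zinc and sugar carriers hold calls in both directions, and the dicarboxylate, mitochondrial and nucleoside groups hold dark bars on the lower side only.

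The later time was set against the earlier directly, with the 4 arrays at 18 h against the 4 at 4 h over both strains. Of 224 solute carriers 14 were called, 4 higher and 10 lower at 18 h, which is 6.25% beside 3.73% of all genes (1.4% higher and 2.33% lower). With the block it was 54 beside 16.8% of all genes. Slc37a2 fell by 1.76 (SE 0.15, adjusted p = 0.0012), Slc22a5 by 1.26 (SE 0.19, adjusted p = 0.012), Slc30a4 by 1.20 (SE 0.17, adjusted p = 0.0089), and Slc2a6 by 0.93 (SE 0.14, adjusted p = 0.012). Slc25a29, a mitochondrial carrier of basic amino acids, fell by 1.19 (SE 0.17, adjusted p = 0.0086), from -3.01, -3.28, -2.86 and -2.74 at 4 h to -3.93, -4.44, -4.29 and -4.0 at 18 h. These 2 sets of arrays did not overlap. Slc39a4 (-1.84 ± 0.35, adjusted p = 0.030), Slc13a3 (adjusted p = 0.013), the carnitine carrier Slc22a21 (-0.79 ± 0.14, adjusted p = 0.023), Slc12a9 (-0.62 ± 0.13, adjusted p = 0.038) and the aspartate and glutamate carrier Slc25a12 (-0.50 ± 0.11, adjusted p = 0.050 when rounded) were the other genes that fell. No size is given for Slc13a3, because neither Balb/c array at 18 h was above background for it. The 4 that rose were Slc27a3 (1.87 ± 0.26, adjusted p = 0.0080), Slc7a11 (1.84 ± 0.14, adjusted p = 0.00088), Slc39a12 (1.51 ± 0.22, adjusted p = 0.0099) and Slc45a4 (0.54 ± 0.11, adjusted p = 0.037). The size for Slc7a11 is limited by background, because 4 h replicate 1 of each strain was not above it. The second Slc7a11 probe had already risen against mock at 4 h, by 0.60 in C57BL6 and 1.21 in Balb/c. At 18 h that probe had 1.70 and 1.71, so its rise between the times was smaller.

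Leaving out any 1 of the 8 arrays left 6 to 13 of the calls between 18 h and 4 h. Slc37a2, Slc30a4, Slc25a29, Slc27a3, Slc39a12 and Slc7a11 were called in all 8 fits, whereas Slc25a12 and Slc45a4 were called in none of them. The others lost the call in some fits, with the highest adjusted p at 0.055 for Slc22a5, 0.13 for Slc39a4, 0.065 for Slc13a3, 0.059 for Slc2a6, 0.10 for Slc22a21 and 0.16 for Slc12a9. For Slc7a11 these fits used the brighter probe, which lay near background at 4 h.

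The strains were compared in mock cells, where 12 of 224 solute carriers were called, 6 higher and 6 lower in Balb/c. That is 5.36% of the members beside 5.25% of all genes (2.5% higher and 2.75% lower), so the members differed about as often as other genes. With the block it was 40, or 17.9% beside 20.5% of all genes. The block was set within each strain and takes out the spread between experiments, which a strain difference has to exceed. No conclusion about the strains is drawn from it. The gap was widest for Slc13a3, whose C57BL6 mock levels were -0.69 and -0.60 and whose Balb/c mock levels, -5.10 and -5.45, were at background (-4.63 ± 0.25, adjusted p = 4.5e-05). It stayed at or below -5.10 on all 6 Balb/c arrays and at or above -2.34 on all 6 C57BL6 arrays. Slc13a3 was 1 of 5 genes well above background in all 3 C57BL6 groups and in no Balb/c group, with Slc38a3, Slc26a3, Slc29a4 and Slc25a23, and 0 members had the opposite pattern, beside 656 and 32 of all 18427 genes. By group, 203, 212 and 214 genes were well above background in C57BL6 mock, 4 h and 18 h and 190, 191 and 180 in Balb/c. That is 90.6%, 94.6% and 95.5% of the members in C57BL6 and 84.8%, 85.3% and 80.4% in Balb/c, beside 90.1%, 93.7% and 94.1%, and 84.5%, 82.5% and 79.1%, of all genes.

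Other carriers lower in Balb/c mock were the sodium and proton exchanger Slc9a2 (-3.26 ± 0.44, adjusted p = 0.0049), the neutral amino acid exchanger Slc7a8 (-2.33 ± 0.48, adjusted p = 0.032), the GABA carrier Slc6a13 (-2.03 ± 0.25, adjusted p = 0.0034), the vesicular monoamine carrier Slc18a1 (-1.31 ± 0.17, adjusted p = 0.0042) and Slc25a12 (-0.73 ± 0.15, adjusted p = 0.037). Slc7a8 had levels of 5.33 and 5.68 in C57BL6 mock and 2.64 and 3.70 in Balb/c mock, 2 ranges that lie apart. Slc6a13 had -1.87 and -2.39 against -4.18 and -4.12, and its second probe gave -1.84. Among those higher in Balb/c were Slc27a6, a fatty acid carrier of heart that was below background in C57BL6 mock and at least 5.80-fold higher in Balb/c (adjusted p = 0.011), Slc45a3 (2.50 ± 0.25, adjusted p = 0.0012), Slc7a7 (1.76 ± 0.26, adjusted p = 0.0072) and Slc7a4 (1.34 ± 0.30, adjusted p = 0.042). The test also called Slc7a11, but both mock groups were below background there and no fold is given.

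No slide held mock arrays of both strains, so slide and strain cannot be told apart in mock. With slide as a block, which uses the treated arrays to set the slides against each other, 6 members were called, 5 of them among the 12. Leaving out 1 mock array left 5 to 13 calls, and Slc13a3, Slc9a2, Slc6a13, Slc18a1 and Slc45a3 were called in all 4 such fits. The others named went up to an adjusted p of 0.19 for Slc7a8, 0.20 for Slc25a12, 0.23 for Slc7a4, 0.054 for Slc7a7, 0.072 for Slc27a6 and 0.068 for Slc7a11. Beside these stand the neutrophil markers: 6 of 8 listed were measured, 5 of them called lower in Balb/c mock, with summed levels of 3.59 to 3.94 in C57BL6 mock and 1.78 to 2.09 in Balb/c mock. Of 4 stromal markers 1 was called higher in Balb/c mock, and the other cell type lists held no call there by limma. With the block, which here leaves out the spread between experiments, 1 B cell, 1 eosinophil and 1 mast cell or basophil marker were lower. In the same fit 1 erythroid and 1 megakaryocyte marker were higher. The part of these cells in the strain differences was not tested.

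**Figure D4:**
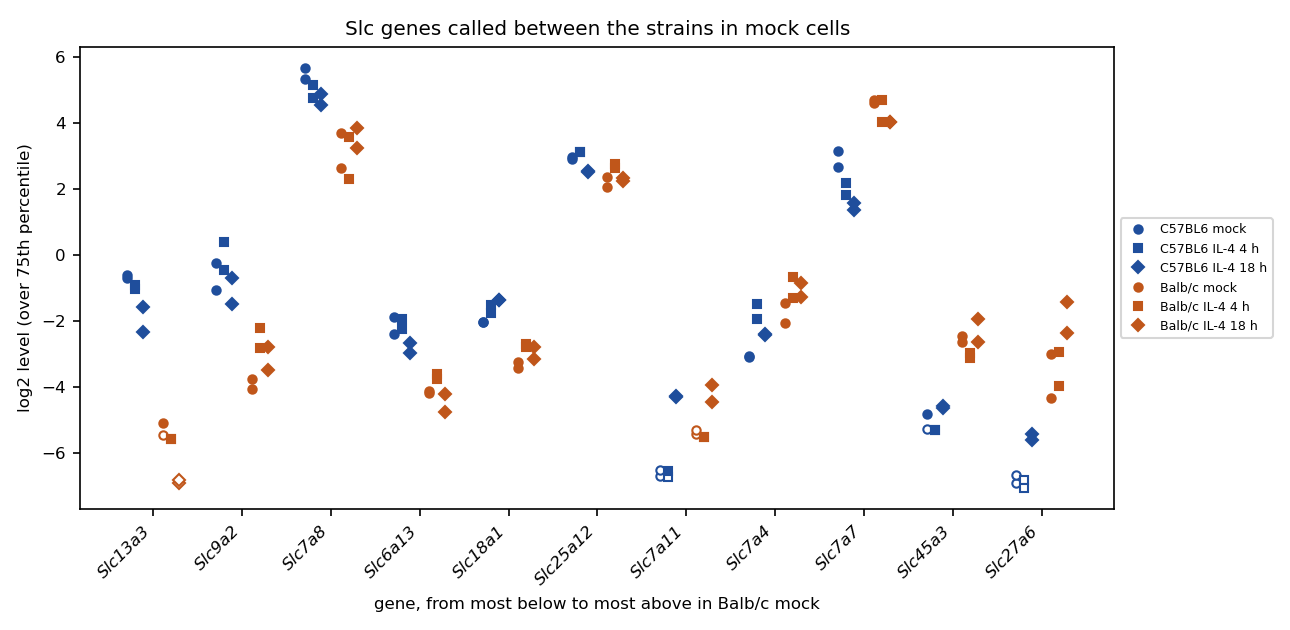
Level (y axis, log2 over the 75th percentile of the array) of 11 of the 12 solute carriers called between the strains in mock cells, on all 12 arrays, with C57BL6 in blue and Balb/c in orange and open symbols for arrays not well above background. Slc13a3 is near background on all Balb/c arrays, and Slc7a7 is higher on each Balb/c array than on any C57BL6 array.

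Whether the strains responded unequally to IL-4 was tested as an interaction at each time, and 0 of 224 solute carriers were called at 4 h or 18 h by limma (0% of all genes at either time, with or without the block). Unadjusted p-values below 0.05 were found for 5 members at each time, beside 2.42% of all genes at 4 h and 5.28% at 18 h. The 5 at 18 h were Slc32a1 (2.39 ± 0.47 higher in Balb/c, adjusted p = 0.46), Slc39a8 (1.02 ± 0.23, adjusted p = 0.58), Slc7a11 (adjusted p = 0.63, with no size given because both mock groups were below background), Slc16a3 (1.36 ± 0.48, adjusted p = 0.91) and Slc1a6 (1.92 ± 0.78, adjusted p = 0.92, with 1 of 2 Balb/c mock arrays above background). Slc30a4 was among the 5 at 4 h, with -0.86 ± 0.34 (adjusted p = 1.0). A call in 1 strain alone is therefore not shown to differ between the strains. As a description over 224 genes of the same arrays, which are not independent replicates and share their strain's mock arrays, the changes in C57BL6 and Balb/c correlated at r = 0.70 at 4 h and 0.64 at 18 h, beside r = 0.63 and 0.61 over all genes. The sign was the same in 175 and 152 of the members (78.1% and 67.9%), beside 71.6% and 62.5% of all genes.

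**Figure D5:**
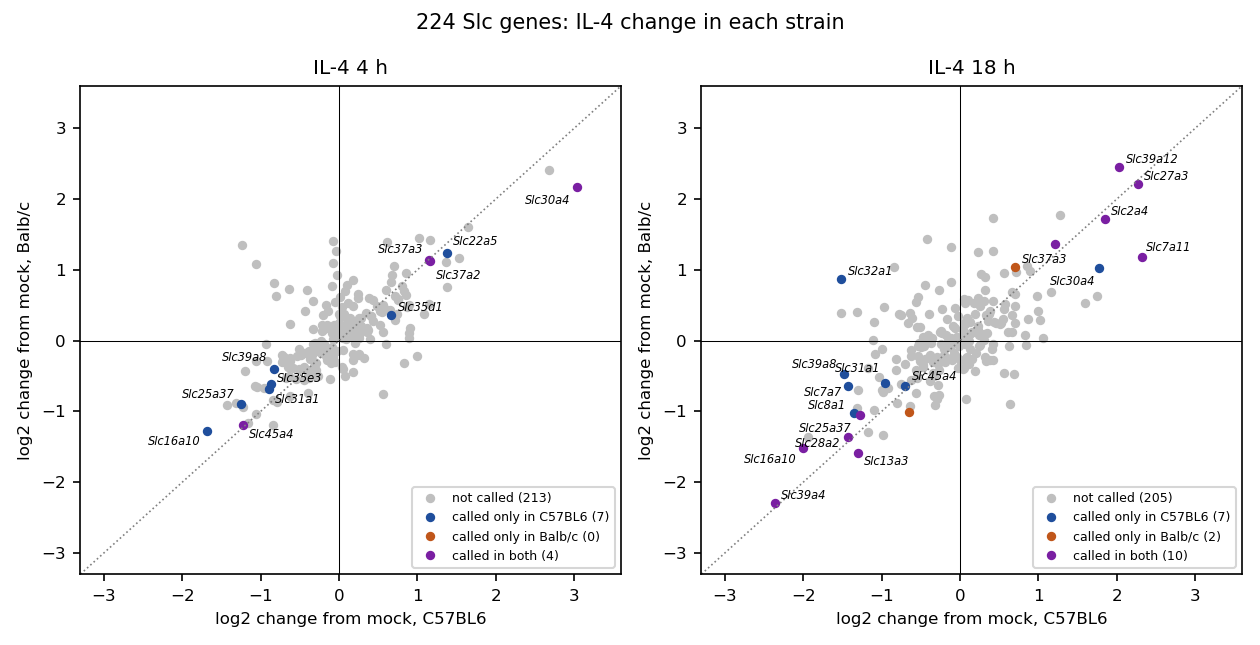
Log2 change from mock of the 224 solute carriers in C57BL6 (x axis) and Balb/c (y axis) at 4 h and 18 h, coloured by call, with the line of equal change dotted. At 4 h 4 genes are called in both strains and at 18 h 10, and Slc32a1 is the called gene that lies farthest from the line at 18 h.

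Transport genes outside the solute carrier names moved as follows. Of 24 ABC transporters tested, none was called higher against mock by limma (2 with the block in C57BL6 at each time), and 2 and 4 were called lower in C57BL6 at 4 h and 18 h, and 1 and 3 in Balb/c. With the block 8 and 9 were lower in C57BL6 and 1 and 5 in Balb/c. Abca1, the cholesterol exporter, fell by 1.98 (SE 0.23, adjusted p = 0.0052) and 1.82 (SE 0.23, adjusted p = 0.0052) in C57BL6 and by 1.39 at both times in Balb/c (SE 0.23, adjusted p = 0.034 and 0.016). Of 16 ion pumps and aquaporins, 2 were called higher at 4 h and 3 at 18 h in each strain, and none lower by limma (1 and 2 in C57BL6 at 4 h and 18 h with the block). In the block fit 5 were higher at each time in C57BL6, and 2 and 4 in Balb/c at 4 h and 18 h. Atp6v0a1, a subunit of the proton pump of lysosomes, rose by 1.93 and 1.37 at 4 h and by 2.02 and 1.39 at 18 h in C57BL6 and Balb/c (adjusted p = 0.0052, 0.033, 0.0031 and 0.014). Of 19 carriers with other symbols, Slco3a1, an organic anion carrier, and Spns3, of a family of lipid carriers, were called lower at 18 h in both strains: Slco3a1 fell by 1.89 and 1.19 and Spns3 by 2.28 and 1.76 (adjusted p = 0.0060 and 0.040, and 0.0017 and 0.0040). None of 9 partner chains of carriers was called against mock by limma, and 1 or 2 were lower with the block in each comparison.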

How the data were processed

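RNA of 12 macrophage samples was hybridised to Agilent one-colour arrays. The authors deposited scanner text files with the processed green signal, an intensity on a linear scale that is background-subtracted already, per the file headers, the software being Agilent Feature Extraction 9.5.1.1 in the submitters' processing notes. They also deposited a linear ratio per probe, used as an alternative. Control spots and spots with outlier flags were left out, spots of a probe were averaged on the log2 scale, and each array's 75th percentile was taken off. Of 41174 probes, 27373 passed the background filter in at least 1 group (both of its arrays), and the brightest probe of each of 18427 genes was tested, 224 of them solute carriers. Gene names came from the transcript accession or symbol through RefSeq (GRCm38.p6) and otherwise from the file.

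Means of the 6 groups were fitted by limma (version 3.58.1; R 4.3.3; data.table package 1.17.8) over all 12 arrays, in 8 comparisons, with 6 residual and 2.04 prior degrees of freedom. Without the replicate block, p-values measure the spread between 2 pooled samples a group. With it, the spread between the experiments of a strain is taken out, also where the strains are compared. A gene not above background on any array of 1 side has a bound, written as at least N-fold: the bright group's mean against the dim group's mean of, per array, the higher of the lowest log2 signal well above background and the gene's own. The series text says that the 2 experiments used different littermates, and the replicate numbers were taken to pair the samples. Deviations of same-numbered samples within a strain correlated at 0.15 to 0.65, all above 0.1. The 2 highest were 0.62 (C57BL6 mock with 4 h) and 0.65 (Balb/c 4 h with 18 h). In these groups alone the replicates lay on different slides, so the correlations cannot tell experiment from slide. The fit was tested on simulated data. Alternatives were 2 other scalings, normexp (offset 50) background correction with outlying local backgrounds set to the array's median, the deposited ratios, other filters on dim probes, a slide or replicate block, array weights, a fit of the compared arrays alone, the mean of a gene's probes, and leaving out each array.

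Named genes were, per comparison, called members whose replicate values did not overlap, by size up to 12 each way; per role the 2 brightest and the one with the largest average change; and 14 genes named beforehand. A few members, kept in all counts and fits, are not reported here by name. Members, roles and gene lists were chosen with earlier results of these data known. Motifs were searched on both strands of the 250 bases before each start in the RefSeq table, which held 172 of the 224 genes. The number of arrays limits the precision.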

Additional observations from a re-analysis of the deposited data

How the results depend on the processing

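The counts of called solute carriers moved by over 1.5 times under these settings. In C57BL6 at 4 h, where 11 were called, the count was 5 with median scaling, 20 with normexp background correction, 3 without the background filter, 19 with probes above background on all 12 arrays, 1 with only the compared arrays in the fit, 54 with the replicate block, 18 with the slide block, 23 with array weights and 7 with the mean of a gene's probes. In C57BL6 at 18 h (17 called) it was 11 with median scaling, 8 without the filter, 7 with only the compared arrays and 56 with the replicate block. In Balb/c at 4 h (4 called) it was 2 with median scaling, 2 without the filter, 0 with only the compared arrays, 30 with the replicate block and 1 with array weights. In Balb/c at 18 h (12 called) it was 7, 5, 0 and 47 with median scaling, no filter, only the compared arrays and the replicate block. Between 18 h and 4 h of IL-4 (14 called) the same 4 settings gave 9, 9, 9 and 54. Between the strains in mock (12 called) the count was 3 with only the compared arrays, 40 with the replicate block and 6 with the slide block. The replicate block leaves the spread between experiments out of this comparison. The cause of these moves was not tested. The fits of the compared arrays alone hold fewer samples and are limma fits with a count of 0 in Balb/c. The pairing by replicate block ended no call of the 70.

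Leaving out 1 array gave 1 to 3 calls in C57BL6 at 4 h, 3 to 5 in C57BL6 at 18 h, 0 to 4 in Balb/c at 4 h, 1 to 6 in Balb/c at 18 h, 6 to 13 between 18 h and 4 h, and 5 to 13 between the strains. The interactions stayed at 0 in every setting run with limma. Of single-gene values, 10 changed sign, all of genes called with the replicate block alone, and the cause was not tested. Slc16a9 in Balb/c at 4 h (-0.64) was 0.17 with the slide block and ran from -1.53 to 0.25 without 1 array (0.14 without 4 h replicate 2). At 18 h (-0.75) Slc16a9 was 0.068 with the slide block and ran from -1.64 to 0.14 (0.10 without 18 h replicate 2). Slc22a4 in Balb/c at 18 h (-0.56) was 0.018 with the slide block and ran from -1.23 to 0.11 (0.05 without mock replicate 1). Slc2a3 in C57BL6 at 18 h (-0.91) was 0.43 with the mean of its probes. Against a mock group below background, as for Slc7a11 in both strains and Slc2a4 in Balb/c, only a bound is given.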
